A study of Mus musculus with 163 samples.

Results

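Maternal-effect chromatin regulators are proteins that the egg makes before fertilisation and that the embryo needs before or soon after its own genome is switched on. A set of 9 such genes was followed here: Smarca4, Arid1a, Npm2, Hira, Trim28, Zfp57, Ctcf, Hsf1 and Chd4. The rule was to take the row of the deposited read counts whose Entrez gene identifier belongs to each symbol. It gave 8 rows of 21950 genes, and Chd4 was not analysed here. The rule used names and no measured value, and the set was proposed with earlier results of these data known.

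The counts come from single mouse oocytes in 7 groups. Growing oocytes (GROs) are still enlarging inside their follicles, and fully grown oocytes (FGOs) have finished and are ready for maturation. The 23 iPSC-derived GROs and 24 iPSC-derived FGOs came from BVSC-iPSCs, induced pluripotent stem cells with Blimp1-Venus and Stella-ECFP reporters. These cells were turned into primordial germ cell-like cells (the step named IVP, for in vitro primordial germ cell differentiation) and differentiated with embryonic gonadal somatic cells (in vitro differentiation, IVD), and the FGOs were then grown as follicles (in vitro growth, IVG). The 24 gonad-derived GROs and 24 gonad-derived FGOs started from E12.5 female gonads and passed through IVD, with IVG added for the FGOs. The 24 6 dpp FGOs came from follicles of mice 6 days after birth and passed through IVG only. The 24 in vivo GROs and 20 in vivo FGOs grew in the mouse, and their age is not in the labels. The authors report that iPSC-derived and gonad-derived GROs were larger than in vivo GROs. The part of oocyte size in any ratio given here was not tested. The labels name 1 iPSC line, and they name no animal, culture or batch for any oocyte. Oocytes are cells, so each group counts as 1 sample, and no p-value or standard error is given for any difference. Levels are the pooled counts of a group per 1000000 reads (CPM), with an exact Poisson 95% interval that covers counting error only. The spread over oocytes is given as lowest, median and highest. A ratio is the log2 of (CPM + 0.5) in the first group over the second, and a gene was called apart at 2-fold or more. CPM is a share of the reads of an oocyte, and the amount of RNA per oocyte was not measured.

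The members act at different steps. Smarca4 (BRG1) is a motor ATPase of the SWI/SNF complexes, which slide and evict nucleosomes, and Arid1a is the DNA-binding subunit of the BAF form of those complexes. Npm2 is the oocyte nucleoplasmin, a histone chaperone that helps to unpack sperm chromatin, and Hira deposits the histone variant H3.3 outside replication. Zfp57 is a KRAB zinc finger protein that binds methylated imprinting control regions and recruits Trim28 (KAP1), which brings silencing enzymes to keep the imprints. Ctcf is the insulator protein that shapes chromatin loops, and Hsf1 is the master activator of heat shock genes and a classical maternal-effect gene. Loss of maternal Smarca4, Npm2, Hira, Trim28, Zfp57 or Hsf1 is known to impair the embryo in the mouse.

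Sequencing gave each oocyte between 2.17 and 13.7 M counted reads (M, 1000000 reads), and the median oocyte had 6.93 M. Oocyte markers were present throughout. All 12 oocyte markers had reads in every group, and they summed to between 49709 and 54023 CPM in the GRO groups and between 25327 and 40119 CPM in the FGO groups. The 12 granulosa markers matched summed to between 61.6 and 83.3 CPM in GRO groups and between 134 and 221 CPM in FGO groups, and 6 dpp FGO 12 alone reached 1673 CPM. These sums move with the stage, as the growth ratios of the members do, and their part in those ratios was not tested. Cumulus markers (3 of 4 matched) summed to at most 2.13 CPM, the 8 theca and stroma markers to at most 15.8 CPM and the 3 blood markers to at most 0.09 CPM. A set of 8 in vivo GROs stands apart from the others, and the ratios against in vivo GROs are also given for the 2 sets of oocytes apart.

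The 250 bases before the transcription start are shown for the 4 members with the lowest ratios of gonad-derived to in vivo GROs with all oocytes (with in vivo GROs 1 to 16 only, Trim28 is not among them), and for Zfp57, whose level in GROs differed little by origin (RefSeq, GRCm38.p6, 5′ to 3′ on the strand of the gene). Capitals mark matches on either strand to the letters of the NRF1 motif (GCGCATGC), an ETS motif (CCGGAAG) or the GC-box (GGGCGG). The Smarca4 window lies at chr9:21615919-21616168 on the plus strand.
Smarca4: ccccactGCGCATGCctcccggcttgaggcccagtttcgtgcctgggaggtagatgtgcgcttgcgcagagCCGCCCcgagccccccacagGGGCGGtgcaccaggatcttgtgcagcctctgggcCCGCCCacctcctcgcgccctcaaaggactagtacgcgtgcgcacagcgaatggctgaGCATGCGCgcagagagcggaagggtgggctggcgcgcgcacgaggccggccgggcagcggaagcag
The outermost Arid1a window lies at chr4:133756770-133757019 on the minus strand.
Arid1a: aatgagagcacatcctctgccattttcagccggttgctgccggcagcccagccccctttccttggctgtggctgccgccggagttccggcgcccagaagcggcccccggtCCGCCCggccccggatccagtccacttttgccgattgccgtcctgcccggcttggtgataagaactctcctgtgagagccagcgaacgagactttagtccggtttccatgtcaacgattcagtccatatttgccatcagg
The Hira window lies at chr16:18876500-18876749 on the plus strand.
Hira: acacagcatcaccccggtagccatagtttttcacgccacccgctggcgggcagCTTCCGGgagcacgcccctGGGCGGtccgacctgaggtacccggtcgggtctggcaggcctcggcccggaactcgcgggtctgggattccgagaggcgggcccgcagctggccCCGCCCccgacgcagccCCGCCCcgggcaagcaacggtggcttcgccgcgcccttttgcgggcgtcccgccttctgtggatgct
The Trim28 window lies at chr7:13023902-13024151 on the plus strand.
Trim28: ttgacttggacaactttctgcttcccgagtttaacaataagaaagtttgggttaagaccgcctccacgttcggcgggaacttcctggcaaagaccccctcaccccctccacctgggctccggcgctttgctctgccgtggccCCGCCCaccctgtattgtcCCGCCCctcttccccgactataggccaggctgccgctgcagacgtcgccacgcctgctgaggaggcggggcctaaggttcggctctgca
The outermost of 3 Zfp57 windows lies at chr17:37000913-37001162 on the plus strand.
Zfp57: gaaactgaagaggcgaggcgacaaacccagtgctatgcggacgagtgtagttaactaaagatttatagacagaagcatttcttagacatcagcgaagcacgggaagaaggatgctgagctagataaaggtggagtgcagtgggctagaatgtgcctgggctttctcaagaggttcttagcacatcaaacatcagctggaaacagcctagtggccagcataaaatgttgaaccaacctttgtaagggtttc

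Promoters were found for 6 of the 8 members, with 9 windows in all. CpG dinucleotides separated them. Smarca4 has 25 in its window, Hira 29, Trim28 17, Ctcf 40, and Arid1a 18 and 33 at its 2 starts. The 3 Zfp57 windows have 3, 6 and 7. The median over 32851 promoters of mouse genes is 6, and 23.5% hold at least 17. The GC-box is in 6 of the 9 windows, all outside Zfp57, against 32.7% of all promoters and 53.3% of those of genes above 1 CPM. The NRF1 letters occur 2 times before Smarca4 and in no other member window, against 2.26% of all promoters and 4.02% of those of genes above 1 CPM. The ETS letters occur before Hira only, against 6.91% and 11.9%. No marked match overlapped another motif. The heat shock element core GAANNTTC, a YY1 motif (AAGATGGC), the cAMP response element TGACGTCA and a NOBOX motif (TAATTG) had no match in any member window, against 6.69%, 1.56%, 1.55% and 7.17% of all promoters. The E-box CANNTG was in 4 of 9 windows against 66.2%. A match describes the letters and not a bound site.

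Levels per kilobase of exon spread the members over more than 3 orders of magnitude, and 2 of them dominated. The exons are those of 1 transcript per gene that the authors chose at random. Whether it is the form present in oocytes was not checked, so levels between genes are approximate. Npm2 was the highest member in every GRO group, at 2316 CPM per kb in iPSC-derived, 2048 in gonad-derived and 2439 in in vivo GROs. Zfp57 stood next at 965, 1018 and 1071 CPM per kb. In all 4 FGO groups this order was inverted, with Zfp57 at 1495 and Npm2 at 1242 CPM per kb in in vivo FGOs and 1809 against 1043 in 6 dpp FGOs. Hsf1 came next in every group, between 55.8 and 82.4 CPM per kb. Hira was the lowest member in all 7 groups, between 0.85 and 1.42 CPM per kb, and Smarca4 was the second lowest, between 3.74 and 12.1. The plot of levels per kilobase shows the inversion between stages beside the unchanged order at the bottom.

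**Figure D1:**
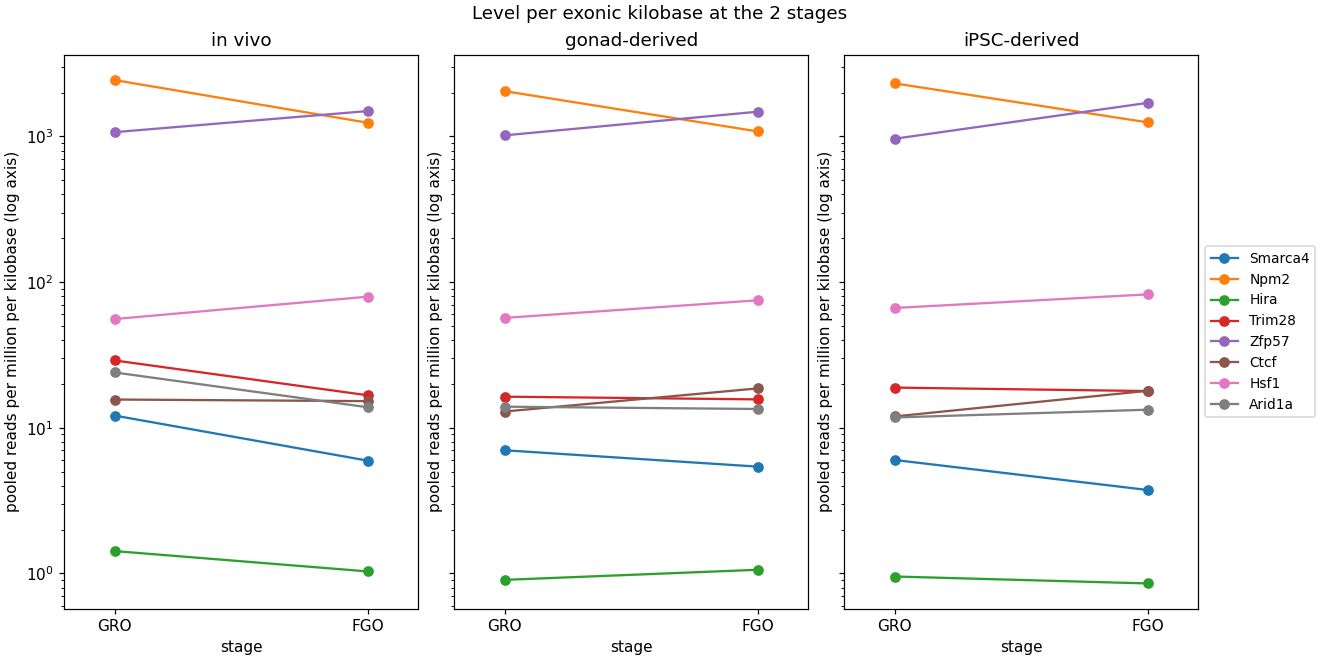
Pooled level of each member at the GRO and FGO stage for the 3 origins that have both, in CPM per kilobase of exon on a log axis, with a line joining the stages of 1 gene. The Npm2 and Zfp57 lines cross in all 3 panels, and Hira lies lowest throughout, between 0.85 and 1.42 CPM per kb.

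Smarca4 (Entrez 20586, mm10 chr9:21616106-21704230, 7724 exonic bases) was highest in in vivo GROs. It lay at 39.1, 90.3 and 191 CPM (lowest, median, highest of 24 oocytes) there, at 38.7, 53.0 and 91.0 in gonad-derived GROs, and at 19.4, 44.6 and 68.3 in iPSC-derived GROs. Among FGOs the values were 26.1, 40.5 and 81.7 in vivo, 28.9, 39.9 and 63.1 in gonad-derived, 21.0, 35.7 and 50.6 in 6 dpp, and 15.1, 29.3 and 44.2 in iPSC-derived oocytes. The ranges of all 7 groups overlapped, and the middle 50% of in vivo GROs lay above the middle 50% of the next group. Pooled, the level was 93.7 CPM (95% interval 92.2 to 95.2) in in vivo GROs and 45.9 (44.8 to 47.0) in in vivo FGOs, a log2 ratio of -1.02 for growth in vivo. All 20 in vivo FGOs were below the median in vivo GRO. Growth gave -0.68 in iPSC-derived and -0.37 in gonad-derived oocytes. Smarca4 was thus lower in FGOs than in GROs of all 3 origins.

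Among GROs the Smarca4 ratio was -0.79 for gonad-derived over in vivo oocytes, which also differed in size (named IVD@GRO after the culture step). It was -0.22 for iPSC-derived over gonad-derived GROs (IVP@GRO) and iPSC-derived GROs were 2.01-fold lower than in vivo GROs, just past the line. That ratio was short of 2-fold with TMM or DESeq2 scaling, with a pseudocount of 2 CPM and with in vivo GROs 1 to 16 only (-0.83), and leaving out 1 oocyte at a time kept it past 2-fold in 30 of 47 fits. All 23 iPSC-derived GROs were below the median in vivo GRO. In FGOs the iPSC-derived group was lowest too, with -0.52 against gonad-derived FGOs (IVP@FGO) and -0.66 against in vivo FGOs, and 23 of 24 iPSC-derived FGOs were below the median of each of those groups. Gonad-derived FGOs lay 0.24 above 6 dpp FGOs (IVD@FGO), and 6 dpp FGOs lay 0.37 below in vivo FGOs on the log2 scale (IVG@FGO, -0.37). The in vivo FGOs numbered 5, 7, 19 and 22 had 70.0, 81.7, 75.5 and 52.7 CPM, all above the group median of 40.5. Without them and the other oocytes set apart in the alternatives, the Smarca4 ratio was -0.15 for IVG@FGO, -0.45 for iPSC-derived and 0.08 for gonad-derived over in vivo FGOs, the last from -0.13 with all oocytes. In vivo FGO 19 also had the highest granulosa marker sum of its group, 425 CPM beside a median of 135. The part of this in the Smarca4 ratios was not tested.

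Arid1a (Entrez 93760, chr4:133679008-133756769, 8975 exonic bases) was near one level in 6 groups and higher in in vivo GROs. Pooled values for the iPSC-derived origin were 106 CPM at the GRO and 119 at the FGO stage, and for the gonad-derived origin 125 and 121. The 6 dpp FGOs were at 119 and the in vivo FGOs at 124 CPM. The in vivo GROs were at 215 CPM (213 to 217), with a lowest oocyte of 105, a median of 151 and a highest of 461. The 8 oocytes numbered 17 to 24 in their labels held all of its values above 180.5 CPM. The highest oocyte in the other groups was 234 CPM, a gonad-derived FGO. The ratio was -0.79 for growth in vivo, 0.18 for growth of iPSC-derived and -0.05 for growth of gonad-derived oocytes. It was -0.78 for IVD@GRO, -0.24 for IVP@GRO and -1.02 for iPSC-derived over in vivo GROs. With medians over oocytes it was -0.33 for growth in vivo, -0.30 for IVD@GRO and -0.46 for iPSC-derived over in vivo GROs. With in vivo GROs 1 to 16 only, the ratio was -0.14, -0.13 and -0.38 in the same order. In the 5 FGO comparisons it stayed between -0.06 and 0.02.

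The other SWI/SNF subunits were taken as a list of 26 genes of which 23 matched. For growth in vivo, 5 of 22 entered were at least 2-fold lower in FGOs and none higher, namely Smarcc1, a core scaffold subunit (18.7 CPM in GROs and 8.12 in FGOs), with Smarcd1, Dpf1, Dpf2 and Bcl7a. Over all genes 23.7% were past 2-fold in that comparison, so the list's share is near the background. With in vivo GROs 1 to 16 only, Smarcc1 was at -0.89 and 4 of 22 remained past 2-fold, and with 17 to 24 it was at -1.57. The median of the list was -0.35, beside -0.11 over 13148 genes. Smarcd1 and Dpf2 were also past 2-fold for growth of iPSC-derived and gonad-derived oocytes, and Dpf1 for iPSC-derived. That makes 3 of 21 lower for iPSC-derived (22% of all genes) and 2 of 22 lower for gonad-derived oocytes (15.8%). In IVD@GRO and in iPSC-derived against in vivo GROs only Arid2, the DNA-binding subunit of the PBAF form, was past 2-fold (1 of 22, with 6.88% and 9.82% of all genes), and none was in the other 6 comparisons. With in vivo GROs 1 to 16 only, Arid2 was at -0.54 and -0.85 and no subunit passed in either. Smarca2, the alternative ATPase, averaged 32.6 CPM per kb over the 7 groups, above the 3.74 to 12.1 CPM per kb of Smarca4. The NuRD list (Chd4 is its ATPase) had 13 of 14 genes matched. Hdac1 and Mta2 were at least 2-fold lower in FGOs for all 3 origins, and Mta1 for growth in vivo, which makes 3 of 13 lower in vivo (23.7% of all genes past 2-fold), 2 of 12 for iPSC-derived (22%) and 2 of 12 for gonad-derived oocytes (15.8%). Mta1 was at -0.31 with in vivo GROs 1 to 16 only, against -2.38 with 17 to 24. Gatad2b was at least 2-fold higher in FGOs of the iPSC-derived and gonad-derived origins. For growth in vivo it passed 2-fold in the same direction with in vivo GROs 1 to 16 only and was at -0.27 with 17 to 24. Outside growth, Mta1 was lower for IVD@GRO (-1.23, 1 of 13, with 6.88% of all genes). Mta1 (-1.22) and Chd5 (-1.03) were lower for iPSC-derived against in vivo GROs (2 of 13, with 9.82%). With in vivo GROs 1 to 16 only, no NuRD gene passed in these comparisons. Chd5 was also lower for IVG@FGO (-1.01, 1 of 12, with 4.2%).

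Npm2 (Entrez 328440, chr14:70647296-70661802) was the one member whose stages did not overlap for any of the 3 origins. It lay at 2577, 3179 and 4175 CPM in iPSC-derived GROs, 2173, 2711 and 4185 in gonad-derived GROs, and 2659, 3199 and 5722 in in vivo GROs. Among FGOs it lay at 1423, 1712 and 2013 in iPSC-derived, 545, 1498 and 1785 in gonad-derived, 1174, 1418 and 1643 in 6 dpp, and 1245, 1615 and 2267 in in vivo oocytes. No FGO reached the lowest GRO of its own origin. Over all genes, the stages did not overlap for 3.45% in vivo, 8.01% for iPSC-derived and 3.98% for gonad-derived oocytes. The share of genes without overlap in all 3 origins at once is not given here. The growth ratios were -0.97 in vivo, -0.89 for iPSC-derived and -0.92 for gonad-derived oocytes. They were close to one another and just short of the 2-fold line. Within a stage the groups differed less. The ratio was 0.18 for IVP@GRO, -0.25 for IVD@GRO, 0.21 for IVP@FGO, 0.05 for IVD@FGO and -0.25 for IVG@FGO. Of the 7 related histone chaperones, Set, an inhibitor of histone acetylation, was at least 2-fold lower in FGOs for all 3 origins. In vivo its ratio was -0.89 with in vivo GROs 1 to 16 only, short of 2-fold, and -1.31 with 17 to 24. Set was 1 of 7 past 2-fold in each growth comparison. Over all genes the shares were 23.7% in vivo, 22% for iPSC-derived and 15.8% for gonad-derived oocytes.

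Hira (Entrez 15260, chr16:18876750-18970309, 5533 exonic bases) was scarce, with 785 to 1275 reads per group. It lay at 2.79, 7.28 and 15.7 CPM in in vivo GROs, and the other 6 groups had medians between 4.34 and 5.93 CPM and a highest oocyte of 9.92. Pooled, in vivo GROs were at 7.88 CPM (7.45 to 8.32), gonad-derived GROs at 5.00 (4.65 to 5.36) and in vivo FGOs at 5.71 (5.33 to 6.11). The ratio was -0.61 for IVD@GRO, -0.54 for iPSC-derived over in vivo GROs and 0.07 for IVP@GRO. For growth it was -0.43 in vivo, -0.14 in iPSC-derived and 0.21 in gonad-derived oocytes. Over in vivo GROs 1 to 16 alone, Hira was at -0.27 for IVD@GRO, -0.20 for iPSC-derived over in vivo GROs and -0.09 for growth in vivo. With 17 to 24 only, the values were -1.12, -1.05 and -0.94. Of the 9 genes listed for the HIRA complex and H3.3 deposition, 8 were measured, and none was 2-fold apart in any of the 11 comparisons with all oocytes. The numbers 17 to 24 alone gave 2 of 8 lower for growth in vivo (Ubn2 and Cabin1, subunits of the HIRA complex, with 29.7% of all genes past 2-fold), the same 2 for IVD@GRO (14.2%) and 3 for iPSC-derived against in vivo GROs (17.3%, with Ubn1 added). Numbers 1 to 16 alone gave none.

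Zfp57 (Entrez 22715, chr17:37001163-37010729) was higher in FGOs than in GROs of every origin. It lay at 1689, 2044 and 2364 CPM in iPSC-derived, 1906, 2138 and 2499.8 in gonad-derived and 1888, 2289 and 2675 in in vivo GROs. It lay at 2878, 3591 and 4404 in iPSC-derived, 1509, 3207 and 3711 in gonad-derived, 3136, 3699 and 5540 in 6 dpp and 2539, 3285 and 4014 in in vivo FGOs. The iPSC-derived stages did not overlap, and 17 of 20 in vivo FGOs and 23 of 24 gonad-derived FGOs were above every GRO of their origin. The growth ratios were 0.82 for iPSC-derived, 0.54 for gonad-derived and 0.48 for in vivo oocytes. The 6 dpp FGOs were the highest group, with 0.28 over in vivo FGOs (IVG@FGO), and gonad-derived FGOs were lower than they (IVD@FGO, -0.29), with 23 of 24 below the 6 dpp median. Among GROs the ratios lay between -0.15 and -0.07.

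Trim28 (Entrez 21849, chr7:13024152-13031032, 3922 exonic bases), the partner that Zfp57 recruits, differed little between the stages in culture. In vivo FGOs were lower than in vivo GROs with all oocytes (-0.79), and not with in vivo GROs 1 to 16 only (0.12). Pooled values for the iPSC-derived origin were 74.0 CPM at the GRO and 70.1 at the FGO stage, and for the gonad-derived origin 64.2 and 61.4. The 6 dpp FGOs were at 61.7 and the in vivo FGOs at 65.5 CPM. In vivo GROs were at 114 CPM (112 to 115) and spread from 33.2 through a median of 73.3 to 328. They held both the lowest and the highest Trim28 oocytes of the whole series. Those numbered 17 to 24 in their labels held all values above 93.2 CPM. The ratio was -0.79 for growth in vivo against -0.08 and -0.06 for growth of iPSC-derived and gonad-derived oocytes, -0.82 for IVD@GRO and -0.62 for iPSC-derived over in vivo GROs. With medians over oocytes these were -0.26 for growth in vivo, -0.16 for IVD@GRO and 0.06 for iPSC-derived over in vivo GROs. Of 8 genes listed for KRAB zinc finger silencing 7 were measured, and Morc3 for growth of iPSC-derived oocytes was the single one past 2-fold (lower, 1 of 7, with 22% of all genes).

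Ctcf (Entrez 13018, chr8:105636474-105682922) was higher in FGOs than in GROs from culture, and the in vivo comparison depended on which in vivo GROs were used. Pooled values went from 51.5 CPM in GROs to 77.2 in FGOs for the iPSC-derived origin and from 55.7 to 80.2 for the gonad-derived one. In vivo the stages were at 67.3 and 65.6 CPM, and 6 dpp FGOs at 85.4. The growth ratios were 0.58 for iPSC-derived, 0.52 for gonad-derived and -0.04 for in vivo oocytes, the last turning to 0.03 with TMM or DESeq2 scaling and to 0.22 with medians over oocytes. In vivo GROs 1 to 16 alone, at 50.6 CPM, gave 0.37, and numbers 17 to 24, at 101 CPM, gave -0.61. Of the 20 in vivo FGOs 18 were above the median in vivo GRO. All 24 gonad-derived FGOs and 23 of 24 iPSC-derived FGOs were above the median GRO of their origin, with overlapping ranges. Among FGOs the largest ratio was 0.38 (IVG@FGO), and 22 of 24 6 dpp FGOs were above the in vivo median of 65.4 CPM. In the list of its paralog and cohesin genes (12 of 13 matched), Pds5a, a cohesin regulator, and Yy1, another looping factor, were at least 2-fold lower in FGOs for all 3 origins. Pds5b was lower in vivo (-1.10, and -0.71 with in vivo GROs 1 to 16 only) and in iPSC-derived oocytes, and Wapl, which releases cohesin, was higher in iPSC-derived FGOs (1.31). This makes 3 of 11 lower for growth in vivo, where 23.7% of all genes were past 2-fold, 3 lower and 1 higher for growth of iPSC-derived oocytes (22.0%) and 2 lower for growth of gonad-derived oocytes (15.8%). Pds5a (-1.02) and Yy1 (-1.15) were lower for IVD@GRO (2 of 11, with 6.88%), and Yy1 (-1.30) for iPSC-derived against in vivo GROs (1 of 11, with 9.82%). With in vivo GROs 1 to 16 only, no listed gene passed in these comparisons. For iPSC-derived against in vivo FGOs, Pds5a was lower (-1.02, 1 of 11, with 13.9%).

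Hsf1 (Entrez 15499, chr15:76477362-76501155) was higher in FGOs of all origins. It lay at 144, 167 and 203 CPM in iPSC-derived, 123, 139.7 and 173 in gonad-derived and 96.7, 137 and 172 in in vivo GROs. The FGO values were 169.9, 203 and 244 in iPSC-derived, 153, 182 and 285 in gonad-derived, 146, 177 and 219 in 6 dpp and 177, 199 and 221 in in vivo oocytes. Every in vivo FGO was above every in vivo GRO, and every iPSC-derived and gonad-derived FGO was above the median GRO of its origin. The growth ratios were 0.51 in vivo, 0.31 for iPSC-derived and 0.40 for gonad-derived oocytes. All 23 iPSC-derived GROs were above the median of each of the other GRO groups, with ratios of 0.23 (IVP@GRO) and 0.25 (against in vivo GROs). The SD of log2 values was 0.11 in iPSC-derived GROs, where 1.58% of genes of like level had a lower one. That share was 37.2% in in vivo GROs (SD 0.22) and between 5.91% and 17.8% in the other 5 groups.

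Of 15 other heat shock factors and known HSF1 targets 13 matched. Hsp90ab1, the constitutive HSP90 chaperone, was at least 2-fold lower in FGOs for all 3 origins, as was Hsph1, while Hsf5, a germ cell paralog, was at least 2-fold higher for in vivo (1.66) and iPSC-derived oocytes. Hspb1, a small heat shock protein, was past 2-fold in opposite directions, at -1.21 for growth in vivo and 1.11 for growth of iPSC-derived oocytes. In vivo it was at -1.37 with in vivo GROs 1 to 16 only and at -0.83, short of 2-fold, with 17 to 24. With all oocytes, 3 of 12 listed genes were lower and 1 higher for growth in vivo, where 23.7% of all genes were past 2-fold. For growth of iPSC-derived oocytes 2 of 9 were lower and 2 higher (22%), and of gonad-derived oocytes 2 of 10 were lower (15.8%). For IVD@GRO 4 of 12 were at least 2-fold lower in gonad-derived GROs and none higher, namely Hsp90ab1 (-1.05), Hspb1 (-1.40), Hspa1a and Hspa1b, where 6.88% of all genes were past 2-fold. The last pair are near-identical copies at low counts, so their split is uncertain. They were at -0.52 and -0.24 with in vivo GROs 1 to 16 only. In that setting 2 of 12 genes remained past 2-fold, with 5.88% of all genes. The Hsf1 ratio in the same comparison was 0.03.

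Read together over the 11 comparisons, few members passed 2-fold. For growth in vivo 1 of 8 did (Smarca4), where 23.7% of 13148 genes did. This call was lost with TMM or DESeq2 scaling, with a pseudocount of 2 CPM and with in vivo GROs 1 to 16 only, where Smarca4 was at -0.85. For growth of iPSC-derived oocytes none did (22% of 13115 genes) and for growth of gonad-derived oocytes none (15.8% of 13068 genes). For the oocytes themselves, 2 of 8 members did not overlap between in vivo GROs and FGOs (Npm2 and Hsf1, with 3.45% of genes), 2 of 8 between the iPSC-derived stages (Npm2 and Zfp57, with 8.01%) and 1 of 8 between the gonad-derived stages (Npm2, with 3.98%). Among GROs no member passed for IVP@GRO (3.73% of 13422 genes) or IVD@GRO (6.88%), and 2 of 8 passed for iPSC-derived against in vivo GROs (Smarca4 and Arid1a, with 9.82%). Both were short of 2-fold with in vivo GROs 1 to 16 only (-0.83 and -0.38) and without in vivo GRO 17 (-0.95 and -0.96), and Arid1a was at -0.46 with medians over oocytes. Among FGOs no member passed for IVP@FGO (5.93% of 13582 genes), IVD@FGO (2.53%), IVG@FGO (4.2%), iPSC-derived against in vivo FGOs (13.9%) or gonad-derived against in vivo FGOs (5.38%). Where cultured GROs were set against in vivo GROs, 7 of 8 member ratios were below 0 in IVD@GRO (median -0.44, beside -0.03 over all genes) and 7 of 8 in iPSC-derived over in vivo GROs (median -0.46, beside -0.03). Of all genes, 46.6% and 47.0% were above 0. Both comparisons share the in vivo GROs. With in vivo GROs 1 to 16 only, 6 of 8 and 5 of 8 were below 0, with medians of -0.13 and -0.14. The FGO comparisons had member medians between -0.12 and 0.06.

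**Figure D2:**
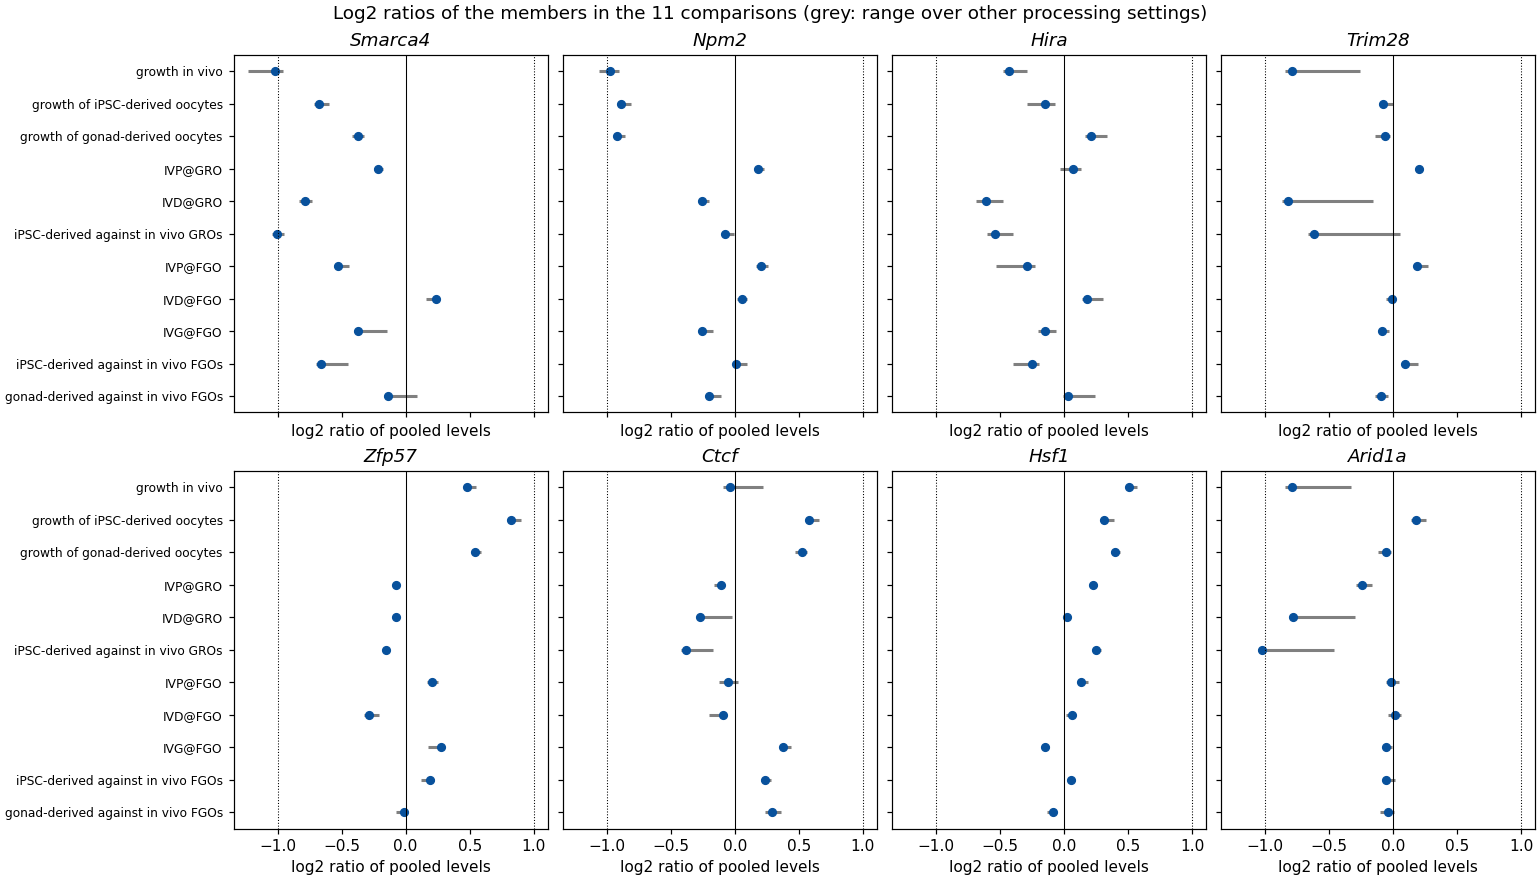
Log2 ratio of pooled (CPM + 0.5) of each member in the 11 comparisons, with dotted lines at 2-fold and grey bars for the range over the other processing settings. Smarca4 and Arid1a reach the line only where in vivo GROs enter, and Npm2 lies between -0.97 and -0.89 in all 3 growth comparisons.

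**Figure D3:**
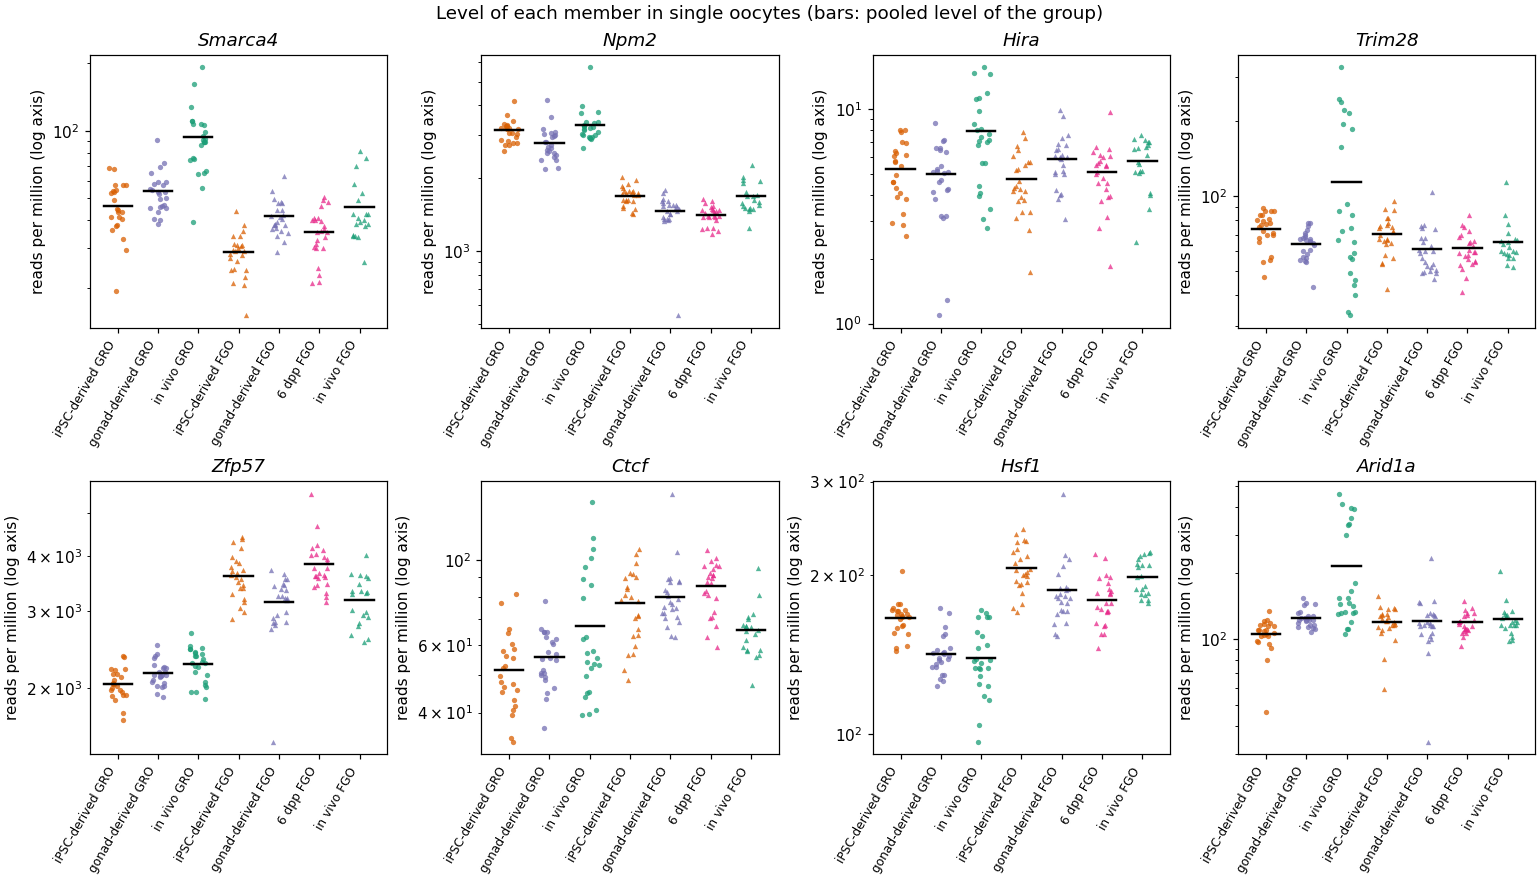
CPM of each member in each oocyte on a log axis, by group (circles GROs, triangles FGOs), with bars at the pooled level. The Npm2 points of GROs lie above those of FGOs of the same origin, and the in vivo GROs of Trim28 reach from 33.2 to 328 CPM.

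The in vivo GROs separated by the number in their label for Trim28, Arid1a and Ctcf. Oocytes were read in blocks of 8 by the number in their label, in all 7 groups, after the spread of Trim28 had been seen. The Trim28 values therefore describe the split and are no support for it. All 8 in vivo GROs numbered 17 to 24 were above all 16 numbered 1 to 16 for Trim28, at 158 to 328 against 33.2 to 93.2 CPM. The same held for Arid1a (299.7 to 461 against 105 to 180.5 CPM) and Ctcf (79.4 to 141 against 39.4 to 62.9 CPM). The share of all genes without overlap between these sets is not given here, so the separation is not set against a background. Pooled, numbers 17 to 24 were at 221 against 60.2 CPM for Trim28 (log2 1.87), 372 against 137 for Arid1a (1.44) and 101 against 50.6 for Ctcf (0.99). Hira was at 11.4 against 6.11 CPM (0.85) and Smarca4 at 115 against 83.2 (0.46), with overlapping oocytes. Hsf1 was lower, at 119 against 149.5 CPM (-0.33), and Zfp57 (-0.16) and Npm2 (-0.04) differed little. Within the remaining in vivo GROs, numbers 1 to 8 and 9 to 16 were alike, with Trim28 at 58.3 and 62.2 CPM and Arid1a at 132 and 143 CPM.

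**Figure D4:**
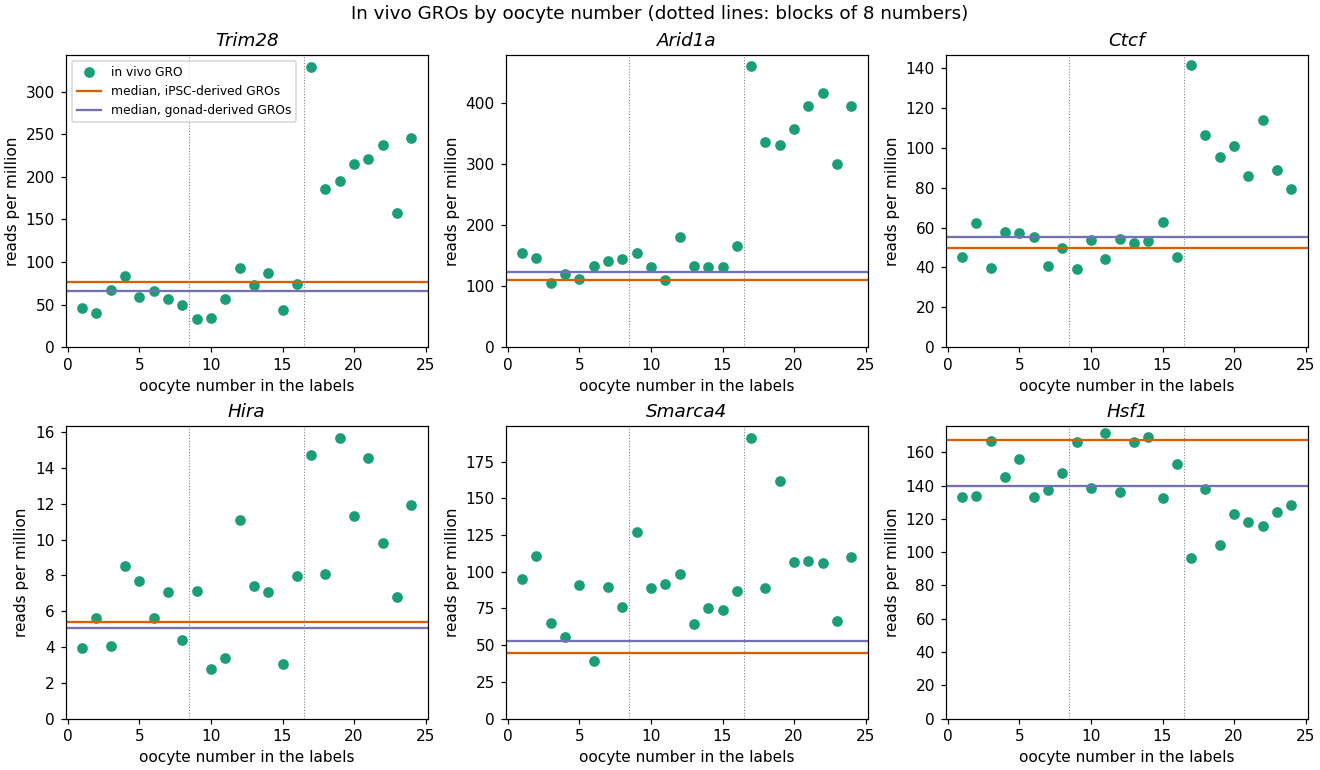
CPM of 6 members in the 24 in vivo GROs (points) by the number in the label, with lines at the medians of the other GRO groups and dotted lines between blocks of 8. For Trim28, Arid1a and Ctcf every oocyte numbered 17 to 24 lies above every oocyte numbered 1 to 16, and for Hira, Smarca4 and Hsf1 the 2 sets overlap.

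The split reached beyond the members. Between numbers 17 to 24 and the rest of the in vivo GROs, 8.52% of 12447 genes differed at least 2-fold. For blocks of the other 6 groups the share was at most 3.24%. Median depth was alike, at 6.88, 6.67 and 6.82 M reads for numbers 1 to 8, 9 to 16 and 17 to 24. The share of reads on genes with over 6000 exonic bases was not, with medians of 6.26%, 6.52% and 8.35%. The labels give no batch, animal or age for the numbers. The part of any of these in the member differences was not tested.

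Ratios against in vivo GROs were therefore taken with each set alone. With numbers 1 to 16 only, no member passed 2-fold for growth in vivo (21.9% of genes did), IVD@GRO (5.88%) or iPSC-derived against in vivo GROs (8.67%). With numbers 17 to 24 only, 3 of 8 passed for growth in vivo (29.7%), 4 of 8 for IVD@GRO (14.2%) and 4 of 8 for iPSC-derived against in vivo GROs (17.3%). The 4 members in the last pair were Smarca4, Hira, Trim28 and Arid1a. Trim28 turned sign, with 0.09 for IVD@GRO and 0.12 for growth in vivo on numbers 1 to 16 and -1.78 and -1.75 on numbers 17 to 24. Arid1a lay at -0.13 for IVD@GRO and -0.14 for growth in vivo on numbers 1 to 16, against -1.57 and -1.58. Ctcf for IVD@GRO was 0.14 on numbers 1 to 16 and -0.85 on numbers 17 to 24.

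Smarca4 kept its direction on both sets. It lay at -0.62 and -1.08 for IVD@GRO, -0.85 and -1.31 for growth in vivo, and -0.83 and -1.29 for iPSC-derived over in vivo GROs, on numbers 1 to 16 and 17 to 24. Npm2 for growth in vivo was -0.99 and -0.95, Zfp57 0.43 and 0.59, and Hsf1 0.41 and 0.73. The stage differences of these 3 members were thus present with either set.

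Calls in the context lists also differed between the 2 sets. Of 80 listed genes that entered IVD@GRO, 2 were at least 2-fold lower with numbers 1 to 16 (Hsp90ab1 at -1.05 and Hspb1 at -1.56) and 19 with numbers 17 to 24, with none higher on either, where 5.88% and 14.2% of all genes were past 2-fold. Mta1, a NuRD subunit, was at -0.18 and -2.26, Yy1 at -0.32 and -2.05, and Arid2 at -0.54 and -1.81. For growth in vivo 11 of 80 were lower and 2 higher with numbers 1 to 16, and 26 lower and 1 higher with numbers 17 to 24. Over all genes 21.9% and 29.7% were past 2-fold, so both shares are near the background.

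Gene length moved with several comparisons. Among genes of at least 10 CPM, the median IVD@GRO ratio went from 0.10 for exons of up to 1000 bases to -0.35 for those over 6000 bases, the bin of Smarca4 and Arid1a. With in vivo GROs 1 to 16 it was -0.14 in that bin. For iPSC-derived over in vivo GROs the median of the bin was -0.44, and -0.20 with numbers 1 to 16. Smarca4 at -0.79 and Arid1a at -0.78 for IVD@GRO were below the median of their bin. With numbers 1 to 16, Smarca4 at -0.62 was below it and Arid1a at -0.13 was at it. Length also moved with ratios that use no in vivo GRO. The medians of the shortest and longest bins were 0.15 and -0.21 for IVP@FGO, 0.14 and -0.18 for iPSC-derived over in vivo FGOs, and -0.25 and 0.17 for growth of gonad-derived oocytes. Smarca4 was at -0.52, -0.66 and -0.37 in these comparisons. The part of length in the member ratios was not tested.

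**Figure D5:**
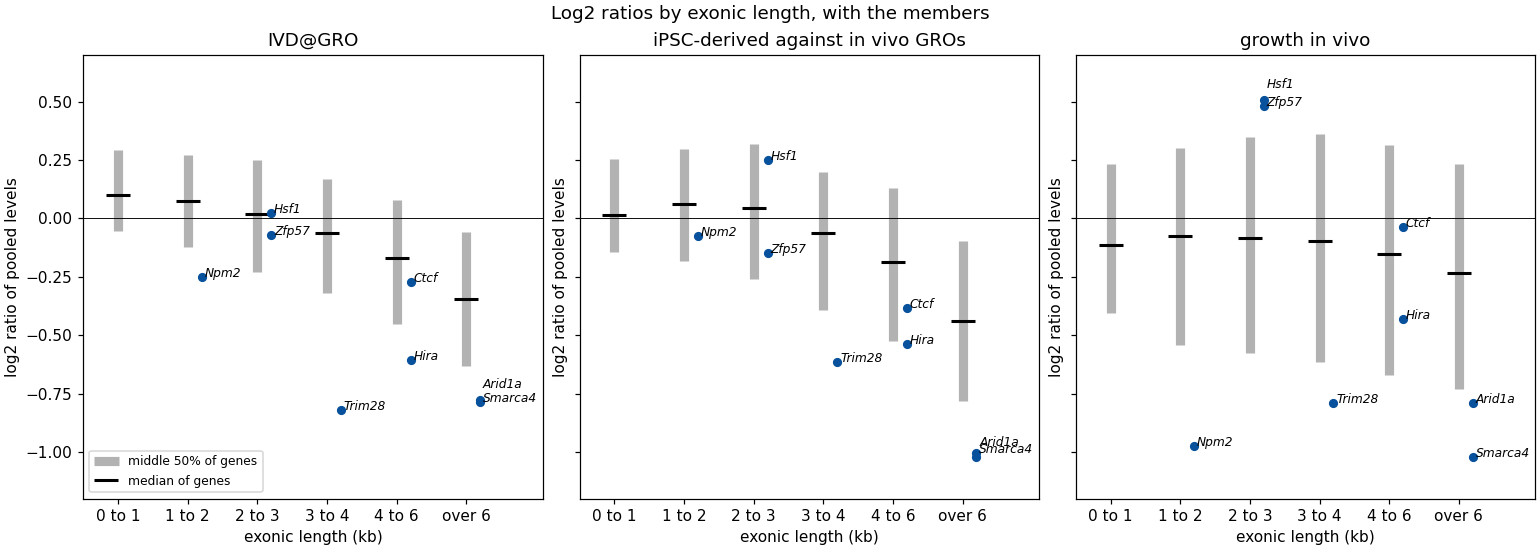
Median log2 ratio of genes of at least 10 CPM by exonic length (kb) for 3 comparisons (black bars), with the middle 50% of genes in grey and the members as blue points. For IVD@GRO the median goes from 0.10 in the shortest bin to -0.35 in the longest, which holds Smarca4 and Arid1a.

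The spread over oocytes is another view of the same values and no further support for the split. For Trim28 the SD of log2 values in in vivo GROs was 1.01, beside a median of 0.27 for genes of like level, and for Arid1a 0.72 beside 0.21. In the other 6 groups the Trim28 SD lay between 0.19 and 0.27. Pairs of members were compared over oocytes. After group means were subtracted, the correlation over the oocytes of all 7 groups was 0.67 for Trim28 with Arid1a and 0.58 for Ctcf with Arid1a. Within in vivo GROs, Trim28 with Arid1a was -0.04 over numbers 1 to 16 (n = 16) and 0.96 over numbers 17 to 24 (n = 8). These points share libraries and total counts, so the values describe and do not test.

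The genes whose levels tracked each member best (Pearson's r of log2 values over the oocytes of all 7 groups) were Akap12 (r = 0.89), Parp1 and Uhrf1 for Smarca4, Gm6083 (0.94), Dppa5a and Spc24 for Npm2, Aurka (0.89), Pak1ip1 and A730082K24Rik for Zfp57, and Pcbp2 (0.85), Mex3c and Smim1 for Trim28. For Ctcf they were Pkn2 (0.85), Lsm14a and Cdc25a, for Hsf1 Smu1 (0.79), 9530068E07Rik and Angel2, for Arid1a Crebbp (0.78), Csnk2a2 and Zfhx3, and for Hira Smap1 (0.52), Pum2 and Med13. After group means were subtracted, r over these 24 pairs ran from 0.40 (Hsf1 with Angel2) to 0.86 (Trim28 with Pcbp2), and for the first-named gene of the others it was 0.73 for Smarca4, 0.64 for Npm2, 0.67 for Zfp57, 0.75 for Ctcf, 0.47 for Hsf1, 0.71 for Arid1a and 0.47 for Hira.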

How the data were processed

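Single oocytes were sequenced with Smart-seq2, and the authors aligned reads with STAR (named with GRCm38 and mm10 in the submitters' processing notes). They counted uniquely mapped reads with QuasR over the exons of 1 transcript per gene, chosen at random. The deposited table holds raw counts per gene and oocyte, and its width column, another deposited value, is the exonic length in bases. Counts of a group were summed and scaled to CPM. Genes entered a comparison within a stage with CPM above 1 in at least 3 oocytes of all groups of that stage. For growth only the oocytes of the groups compared were used. Each ratio used a pseudocount of 0.5 CPM. The labels name no animal or culture, so no test was run. Depth was 2.17 to 13.7 M reads per oocyte, and intervals cover counting error only.

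The members and gene lists were chosen with earlier results of these data known. Named genes are the members, listed genes past 2-fold with all or part of the in vivo GROs, and Smarca2 for its level. The 3 genes most correlated with each member (Pearson, log2 of CPM + 1) are also named. They were taken among genes of at least 10 CPM in every group. Alternatives were TMM library sizes (edgeR 4.0.16), DESeq2 1.42.0 size factors, a pseudocount of 2, the median and the mean of log2 values over oocytes, thinning to 2000000 reads, an edgeR coefficient as a size, no filter, leaving out oocytes that an earlier analysis of these data set apart (in vivo FGOs 5, 7, 19 and 22, gonad-derived FGOs 5 and 22, 6 dpp FGO 12), and leaving out each oocyte. The use of in vivo GROs 1 to 16 or 17 to 24 alone, and the reading in blocks of 8, were chosen after seeing the data. Ratios and calls were tested on simulated data with oocytes drawn independently and planted changes past 2-fold. The simulation held no blocks of oocytes, so it does not bear on the split of in vivo GROs or on ratios near 2-fold. Python 3.11.15, numpy 2.4.6, pandas 2.3.3, scipy 1.17.1 and R 4.3.3 were used.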

Additional observations from a re-analysis of the deposited data

How the results depend on the processing

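The counts of members at least 2-fold apart kept their value for 8 of 11 comparisons under every alternative run. For growth in vivo the count of 1 became 0 with TMM library sizes, DESeq2 size factors or a pseudocount of 2 CPM, 2 without the oocytes that stand apart (Smarca4 and Npm2), and 0 to 1 when each oocyte was left out in turn. Smarca4 then lay between -1.08 (without in vivo FGO 19) and -0.96 (without in vivo GRO 17) and stayed past 2-fold in 40 of 44 such fits. With in vivo GROs 1 to 16 it was 0 and with 17 to 24 it was 3. For IVD@GRO the count of 0 became 4 with in vivo GROs 17 to 24. For iPSC-derived against in vivo GROs the count of 2 became 1 with TMM, DESeq2 or the larger pseudocount (Arid1a), 1 with medians over oocytes (Smarca4), 0 with the mean of log2 values, 0 to 2 when each oocyte was left out, 0 with in vivo GROs 1 to 16 and 4 with 17 to 24. Without 1 oocyte, Smarca4 stayed past 2-fold in 30 of 47 and Arid1a in 38 of 47 of these fits, and without in vivo GRO 17 they lay at -0.95 and -0.96. The cause of these moves was not tested. The pseudocount of 2 CPM lowered every count over all genes. The number of all genes at least 2-fold apart in growth in vivo went from 3111 to 2070, and of all genes at least 2-fold apart in IVD@GRO from 923 to 434. Of 88 member ratios 19 changed sign under some alternative. No paired analysis was possible because each group counts as 1 sample and the numbers in the labels tie no oocytes across groups. Depth limits Hira most, at 785 to 1275 reads per group.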

Other observations

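Gonad-derived FGO 19 differed from its group in all 8 members. It was the highest of 24 for Smarca4 (63.1 CPM, the others up to 54.2), Hira (9.92, up to 9.29), Trim28 (104, up to 76.7), Ctcf (149, up to 104.6), Hsf1 (285, up to 218) and Arid1a (234, up to 149). It was the lowest for Npm2, the oocyte nucleoplasmin, at 545 CPM where the others had at least 1338, and for Zfp57, at 1509 CPM where the others had at least 2718. Its depth was 6.95 M reads. This oocyte alone kept the Zfp57 ranges of gonad-derived GROs and FGOs from being apart. The 4 in vivo FGOs numbered 5, 7, 19 and 22 were high in Smarca4 and had Zfp57 at 2580, 2641, 2539 and 2763 CPM, below the group median of 3285.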
